A study of Mus musculus with 12 samples.

Results

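The 10 genes Apoa1, Apoa2, Apoa4, Apoa5, Apob, Apoc1, Apoc2, Apoc3, Apoe and Apom, chosen by their symbols from 24421 symbols in the count files, encode the main apolipoproteins that a mouse liver makes. All 10 were present in the files and all 10 passed the filter on low counts in every comparison. RNA of 6 liver tumors and 6 non-tumoral livers was counted gene by gene. The mice were aged, ate a standard diet, and carried either p21+/Tert, in which the Cdkn1a (p21) promoter drives telomerase reverse transcriptase, or p21+/TertCi, in which the same promoter drives a catalytically inactive form. No library of a mouse without either allele was analysed here, so every control liver carried one of them, and the age of each mouse is not given in the labels.

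The p21+/Tert group held 2 Ctnnb1 tumors (T-HCC662 and T-HCC663), a further carcinoma (T-HCC941), an adenoma (T-HCA992) and 4 livers (titled p_961, p_663, p_941 and NT_992). The p21+/TertCi group held 2 tumors (TCi-HCC981 and TCi-HCA984) and 2 livers (L981_CI and L984_CI). A number marks the mouse, HCC stands for hepatocellular carcinoma and HCA for adenoma, although the study's histology lists T-HCC663 as an adenoma. Liver p_961 was taken as the liver of the mouse of T-HCC662, by elimination, only where tumors were set against their own livers. By the mutations the study gives for each mouse number, T-HCC662 and T-HCC663 are Ctnnb1 tumors, T-HCC941 and TCi-HCC981 carry a mutated Egfr or Hras, and T-HCA992 and TCi-HCA984 have none of these and are called driver-negative. Both Ctnnb1 tumors were p21+/Tert, so for them class and genotype cannot be told apart. Both driver-negative tumors were adenomas and both Egfr or Hras tumors carcinomas, so between these classes driver and histology cannot be told apart. The name driver-negative covers only Ctnnb1, Egfr and Hras. The study lists other mutations in both, such as Ppp1r9a and PtprE in T-HCA992 and Ep300 in TCi-HCA984, and reports a MAPK signature in T-HCA992.

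Apolipoproteins are the protein coat of the particles that carry fat and cholesterol in blood. Apob is the structural protein of chylomicrons, very low density lipoprotein (VLDL) and low density lipoprotein, while Apoa1 and Apoa2 build high density lipoprotein (HDL). The others are exchanged between particles and set their fate: Apoc2 activates lipoprotein lipase, Apoc3 and Apoc1 slow the clearance of triglyceride, Apoa5 speeds it, and Apoe binds receptors that take remnants up into hepatocytes.

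Libraries held between 14571716 and 26170661 counted reads. The 10 genes took from 4.55% of the reads in TCi-HCA984 to 9.24% in T-HCC662, and Apoe drew the most reads of all genes in 7 of the 12 libraries, without regard to gene length. Hepatocyte marker genes summed to between 48742 and 81436 CPM (counts per 1000000 reads of the library, after edgeR's TMM scaling) in livers, to 34818 and 19692 in the Ctnnb1 tumors and to between 101056 and 110604 in the other 4 tumors. With edgeR, none of the 9 hepatocyte markers tested passed between tumors and livers, and none of 9 stellate and fibroblast, 7 T and B cell and 5 bile duct markers. Of 10 macrophage markers 1 rose, Gpnmb (3.53 ± 0.53, edgeR adjusted p = 0.00188), and of 8 endothelial markers 1 rose, Pecam1 (1.59 ± 0.38, adjusted p = 0.0179). The part of these cell types in the results that follow was not tested. In bulk tissue, fewer cells of a type and less RNA per cell cannot be told apart.

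In GENCODE on GRCm38 (mm10), Apoa1, Apoc3, Apoa4 and Apoa5 lie within 43.34 kb of chromosome 9 (46228580 to 46271919). Apoe, Apoc1, Apoc4 and Apoc2 lie within 27.61 kb of chromosome 7 (19671579 to 19699188). Apoa2 is on chromosome 1 (171225054 to 171226379), Apob on chromosome 12 (7977648 to 8016835) and Apom on chromosome 17 (35128997 to 35132050). The neighbours did not share a direction between tumors and livers: Apoa4 and Apoa5 lie on the same strand, and every tumor had more Apoa4 and less Apoa5 than its own liver. Apoa4 and Apoa5 each overlap an antisense gene, and whether counting used strand is not stated in the sources used here.

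Levels between genes were compared as CPM per kb of exons. In the livers Apoe and Apoa2 led, with medians of 17973 and 16451 CPM per kb, followed by Apoa1 (9471), Apoc1 (4249), Apoc3 (3552), Apoa5 (808), Apob (295), Apoa4 (199) and Apom (107). Within each of the 6 livers Apoa1 lay above Apoc1, Apoc3 above Apoa5 and Apoa5 above Apob. The order of Apoe and Apoa2, of Apoc1 and Apoc3 and of Apoa4 and Apom changed from liver to liver, and Apoa2 lay above Apoa1 and Apob above Apoa4 in 5 of 6 livers, so these neighbours were not set apart. In the tumors the median of Apoa4 was 5148 CPM per kb, above those of Apoc1 (1954) and Apoc3 (1756), while Apoa5 (231), Apob (344) and Apom (229) were lowest. Apoc2 was left out of this order, since a read-through symbol spans it and Apoc4 (described with Apoc2).

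**Figure D1:**
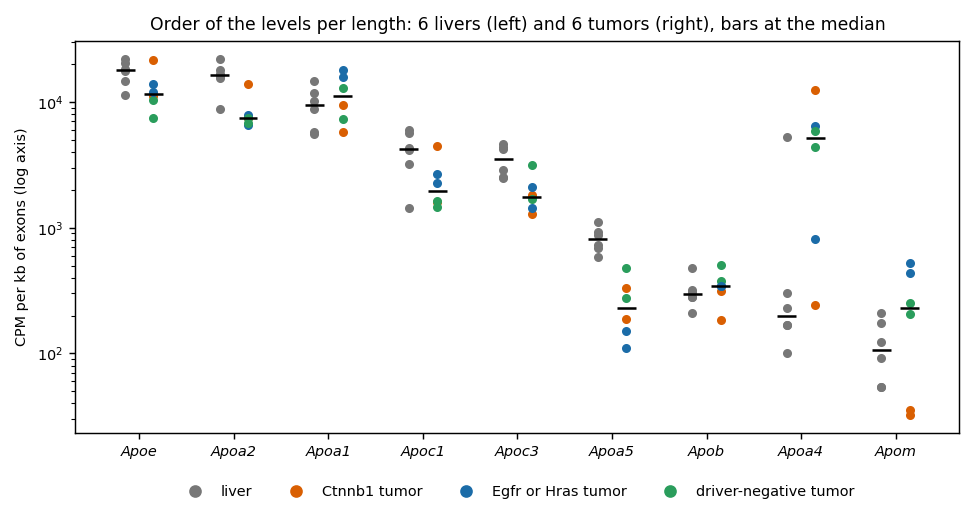
Levels of 9 apolipoprotein genes in CPM per kb of exons (log axis), with 6 livers on the left and 6 tumors on the right of each gene, points coloured by class and bars at the median. Apoa4 ranged from 102 to 5238 in livers and from 244 to 12568 in tumors, and Apom was lowest in the Ctnnb1 tumors at 35.2 and 32.5.

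The first question was which of the 10 genes differed between tumors and livers, 6 libraries against 6. With edgeR's quasi-likelihood test and Benjamini-Hochberg adjustment over all genes at 0.05, Apoa5 fell and Apoc2 rose, and the other 8 did not pass, while 10.7% of all genes tested were called. A count of 2 of 10 is near that background and is not a result about the 10 genes as a group. Of the 10 log2 differences, 5 were above and 5 below 0, and their median was -0.16, where the 13822 genes tested had 0.01.

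**Figure D2:**
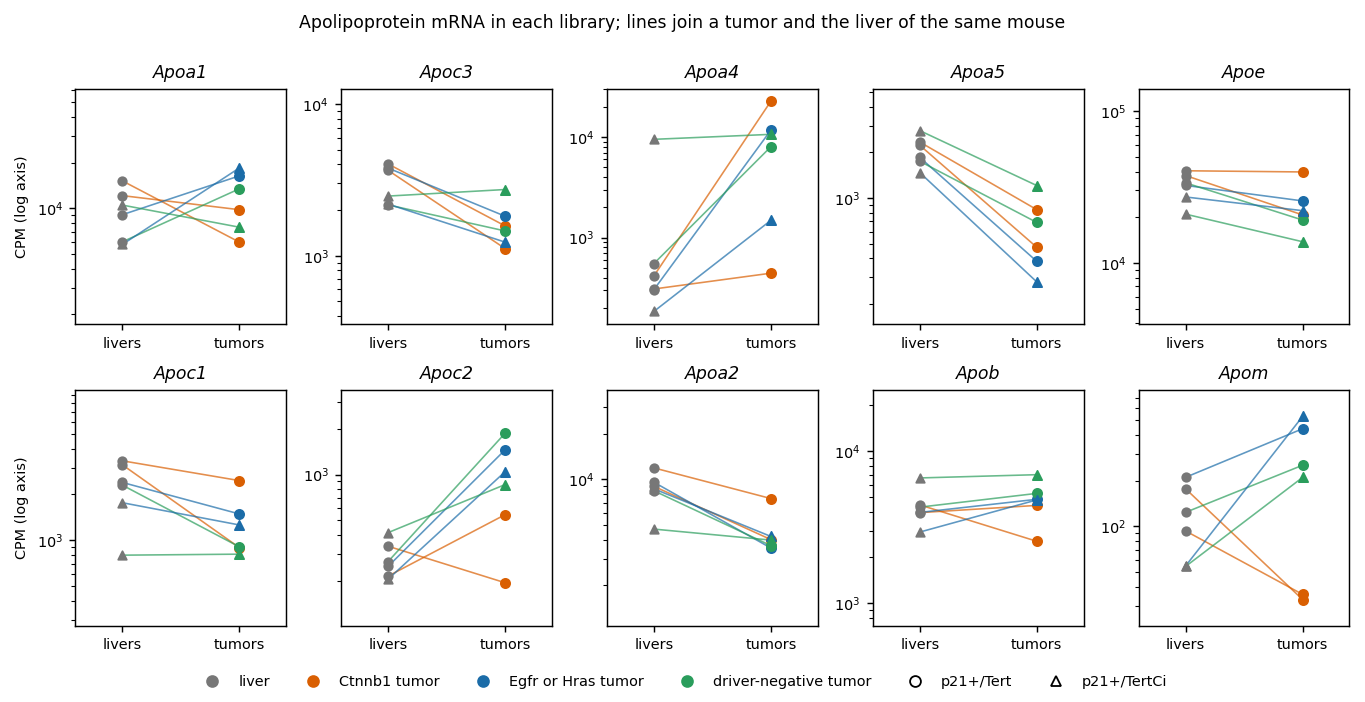
CPM (log axis) of each gene in every library, livers on the left and tumors on the right, with lines joining a tumor to the liver of its mouse (liver p_961 to T-HCC662), colour for driver class and shape for genotype. The Apoa5 lines all fall, from 1470 to 2780 in livers to 280 to 1208 in tumors, and the Apom lines fall for both Ctnnb1 tumors and rise for the other 4.

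Apoa5, a low-abundance protein that promotes the breakdown of triglyceride-rich particles, was lower in every tumor. In livers the lowest, median and highest levels were 1470, 2039 and 2780 CPM, and in tumors 280, 582 and 1208 CPM. The groups did not overlap, and the share of all genes so separated was not computed. The difference was -1.69 ± 0.36 (log2, SE; 3.22-fold lower, edgeR adjusted p = 0.0104).

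Each tumor was also below its own liver in Apoa5, by between 1.20 (TCi-HCA984) and 2.39 (TCi-HCC981) on the log2 scale of CPM + 1, in 6 of 6 mice. With the mouse as a replicate block the difference was -1.83 ± 0.26. The call held with each of the 12 libraries left out in turn, where it ranged from -1.97 to -1.53, and in every other alternative tried for that comparison.

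Upstream of the first Apoa5 start that RefSeq gives on GRCm38.p6, the window holds no exon of any GENCODE gene. Windows are shown for members that passed in any comparison, where at least 100 bases next to the start held no exon. Capitals mark the E-box CACGTG, a palindrome that basic helix-loop-helix factors such as Usf1 can bind, 82 bases before the start (chr9:46268358-46268607, plus strand). From a second RefSeq start of Apoa5 (46268633) the E-box lies 107 bases upstream.
Apoa5 upstream: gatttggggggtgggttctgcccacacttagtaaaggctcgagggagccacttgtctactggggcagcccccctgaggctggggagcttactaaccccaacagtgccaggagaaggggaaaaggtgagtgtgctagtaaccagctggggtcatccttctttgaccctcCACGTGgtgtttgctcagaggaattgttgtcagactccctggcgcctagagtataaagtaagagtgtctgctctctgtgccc
E-box letters were found in 6.02% of 32851 windows of 250 bases, so the match is a description only.

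Apoc2, the cofactor that lipoprotein lipase needs, went the other way. Livers held 204, 258 and 414 CPM (lowest, median and highest). Tumors held 544 (T-HCC662), 194 (T-HCC663), 1455 (T-HCC941), 1044 (TCi-HCC981), 1872 (T-HCA992) and 859 (TCi-HCA984). T-HCC663 lay below every liver and the other 5 tumors above every liver. The place of T-HCC663 depended on the scaling, since its TMM factor was 1.31 where those of the other libraries ran from 0.862 to 1.08. On unscaled totals T-HCC663 held 253 CPM, inside the 189 to 357 CPM of the livers, and the other 5 tumors stayed above.

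The Apoc2 difference was 1.82 ± 0.44 (log2, SE; 3.53-fold higher, edgeR adjusted p = 0.0206), with 5 of 6 tumors above their own liver. With the mouse as a replicate block it was 1.60 ± 0.49 (adjusted p = 0.0585), and without liver p_961 it was 1.75 (adjusted p = 0.0533).

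The count of Apoc2 is uncertain, because a separate symbol in the files, Apoc4-apoc2, is a transcript that reads through Apoc4 into Apoc2 and shares its exons. Its counts were 1.03 to 1.44 times those of Apoc2 in livers and 1.01 to 1.09 times in tumors, so the reads cannot be assigned to either. Tested alone, Apoc4-apoc2 differed by 1.61 ± 0.42 (adjusted p = 0.0266). Apoc4 itself, an apolipoprotein of VLDL, had a log2 difference of -0.75 ± 0.43 (adjusted p = 0.298), and the 3 symbols added up differed by 0.91 ± 0.33 (adjusted p = 0.0953). That sum mixes in Apoc4, and it counts again any read assigned to both Apoc2 and Apoc4-apoc2. How such reads were treated is not stated.

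Upstream of Apoc2, the stretch between its start and the last exon of Apoc4 is shown by the same rule as for Apoa5. Apoc2 and Apoc4 differed in opposite directions across it in the Egfr or Hras and driver-negative tumors. Capitals mark a nuclear receptor motif, AGGTCA (or TGACCT on the other strand, in 14.0% of windows), 115 bases before the start, and an HNF1 motif, GTTAAT (or ATTAAC, in 6.43%), 89 bases before it (chr7:19677942-19678082, minus strand, GRCm38.p6, RefSeq).
Apoc2 upstream: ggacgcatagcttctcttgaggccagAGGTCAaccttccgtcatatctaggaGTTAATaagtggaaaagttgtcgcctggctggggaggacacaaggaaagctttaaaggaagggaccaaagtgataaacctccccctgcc
The searches also took the HNF4 core CAAAGTCCA, the TCF/LEF letters ATCAAAG and the C/EBP letters TTGCNNCAA on both strands, with no overlap between marked motifs. Windows were found for 8 of the 10 genes (not Apoc1 and Apoc3), and the window of Apom lies in an annotated exon and is not printed.

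Apoc3, an inhibitor of lipoprotein lipase and of remnant uptake, held 2164, 3065 and 4028 CPM in livers and 1116, 1516 and 2733 CPM in tumors (lowest, median and highest). The ranges overlapped through TCi-HCA984, the highest tumor, which was also the single tumor above its own liver. The log2 difference was -0.89 ± 0.30 (edgeR adjusted p = 0.0792). Without TCi-HCA984 it was -1.10 (adjusted p = 0.0300). On all 12 libraries the Apoc3 difference passed with DESeq2 (adjusted p = 0.0078) but not with limma-voom (adjusted p = 0.0603).

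Within a library, where scaling has no bearing, the count of Apoc2 was 0.0532 to 0.167 times that of Apoc3 in livers and 0.174 to 1.28 times in tumors, with the uncertainty of Apoc2 given above. The ratio of this lipase activator to this lipase inhibitor thus did not overlap between livers and tumors. The gap was narrow, from 0.167 in liver L984_CI to 0.174 in T-HCC663, the lowest tumor. The ratio was highest in T-HCA992, and the share of gene pairs so separated was not computed. Apoc3 was 0.890 to 2.04 times Apoa5 in livers and 1.88 to 4.77 times in tumors, overlapping through T-HCC662 alone.

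Apoa4, a chylomicron and HDL protein that the intestine makes in quantity and that the mouse liver makes in fasting and with steatosis, was the most variable of the 10, with an SD of log2 CPM of 2.04 in livers and 2.16 in tumors. Livers p_961, p_663, p_941, NT_992 and L981_CI held 416, 308, 304, 552 and 184 CPM, whereas liver L984_CI held 9506. Tumors held 22811 (T-HCC662), 442 (T-HCC663), 11752 (T-HCC941), 1486 (TCi-HCC981), 8033 (T-HCA992) and 10654 CPM (TCi-HCA984). In T-HCC662 Apoa4 ranked second among all genes by reads, without regard to gene length, and both libraries of the mouse of TCi-HCA984 were high.

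Every tumor had more Apoa4 than its own liver, by between 0.16 (TCi-HCA984) and 5.77 (T-HCC662) on the log2 scale. The difference over 6 against 6 was 2.27 ± 1.14 (log2, SE; edgeR adjusted p = 0.228). Without liver L984_CI it was 4.70 (adjusted p = 0.00908), and without both libraries of that mouse it was 4.67 (adjusted p = 0.0127). Within p21+/Tert mice, where liver L984_CI enters only the shared estimate of spread, the difference was 4.75 ± 1.30 (adjusted p = 0.0533, and 0.0221 in a fit of those 8 libraries alone). Without T-HCC663 it was 5.16 (adjusted p = 0.0299).

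Markers of enterocytes were looked at beside Apoa4. Of 6, Sis was at 0 in all 12 libraries, and Cdx2, Lct and Alpi were at or under 0.114 CPM in each. The 6 summed to between 30.3 and 133 CPM in livers and between 51.4 and 349 CPM in tumors, all but traces of it from Fabp2 and Vil1. Fabp2, a fatty acid carrier of the intestine, was highest in T-HCC662 (344 CPM) and, among livers, in L984_CI (132 CPM), the tumor and the liver highest in Apoa4. Other tumors high in Apoa4 did not share this. The 6 markers summed to 77.8 CPM in T-HCA992 and 118 CPM in TCi-HCA984, inside the range of the livers. In T-HCC941 the sum was 223 CPM, with Vil1 at 174 CPM. Vil1, a protein of microvilli, rose from 0.145 to 1.81 CPM in livers to 0.738 to 174 CPM in tumors, with the highest value in T-HCC941 (5.84 ± 1.28, edgeR adjusted p = 0.0125, limma-voom adjusted p = 0.237). Their part in the Apoa4 values was not tested.

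Apoa1, the main protein of HDL, held 5785, 9803 and 15197 CPM in livers and 6000, 11634 and 18457 CPM in tumors (lowest, median and highest). It was higher in 3 tumors and lower in 3 than in their own livers, and the log2 difference was 0.28 ± 0.40 (edgeR adjusted p = 0.708).

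Apoa2, the next HDL protein, held 4704, 8834 and 11905 CPM in livers and 3528, 3996 and 7477 CPM in tumors. Liver L984_CI was the lowest liver and T-HCC662 stood above the 5 other tumors, which spanned 3528 to 4207 CPM. All 6 tumors were below their own livers, by between 0.24 (TCi-HCA984) and 1.44 (T-HCC941). The difference of -0.97 ± 0.33 did not pass with edgeR (adjusted p = 0.0752), but passed without liver L984_CI (-1.10, adjusted p = 0.0482) and without T-HCC662 (-1.17, adjusted p = 0.0261). On all 12 libraries it passed with DESeq2 (adjusted p = 0.00181) and limma-voom (adjusted p = 0.0476).

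The ratio of Apoa1 to Apoa2 counts within a library, on which scaling has no bearing, was 1.21 ± 0.62 in livers (SD, n = 6) and 2.90 ± 1.51 in tumors (SD, n = 6). It was highest in T-HCC941 (4.64), TCi-HCC981 (4.39) and T-HCA992 (3.68), and the ranges overlapped, since liver L984_CI had 2.24 and T-HCC662 had 1.31.

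Apoe held 20950, 33034 and 40456 CPM in livers and 13781, 21392 and 39730 CPM in tumors. All 6 tumors were below their own livers, T-HCC662 by 0.03 and T-HCC663 by 0.86 on the log2 scale, yet the groups overlapped widely and the difference of -0.46 ± 0.40 did not pass (adjusted p = 0.512). On unscaled totals T-HCC662 held 40916 CPM, above liver p_961 at 35745 CPM. Apoc1, its neighbour on chromosome 7, held 797, 2354 and 3335 CPM in livers and 809, 1082 and 2470 CPM in tumors. The ranges overlapped, with liver L984_CI the lowest of all 12 libraries, and the log2 difference was -0.82 ± 0.38 (adjusted p = 0.192).

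Apob had the smallest log2 difference of the 10. Livers held 2931, 4113 and 6662 CPM, tumors held 2548, 4795 and 7000 CPM, and the log2 difference was 0.13 ± 0.32 (adjusted p = 0.835). T-HCC663 was the single tumor below its own liver. The mouse of TCi-HCA984 was highest among both the livers and the tumors.

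Apom, a lipocalin that carries sphingosine-1-phosphate on HDL, had the largest log2 difference of the 10 between Ctnnb1 and other tumors. Livers held 54.5, 109 and 211 CPM (lowest, median and highest). Tumors held 35.6 (T-HCC662), 33.0 (T-HCC663), 440 (T-HCC941), 531 (TCi-HCC981), 253 (T-HCA992) and 210 CPM (TCi-HCA984). Both Ctnnb1 tumors lay below every liver, the Egfr or Hras tumors and T-HCA992 above every liver, and TCi-HCA984 just below the highest liver. On unscaled totals TCi-HCA984 held 196 CPM, just above the highest liver at 191 CPM. The log2 difference over all tumors was 1.07 ± 0.63 (adjusted p = 0.309).

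**Figure D3:**
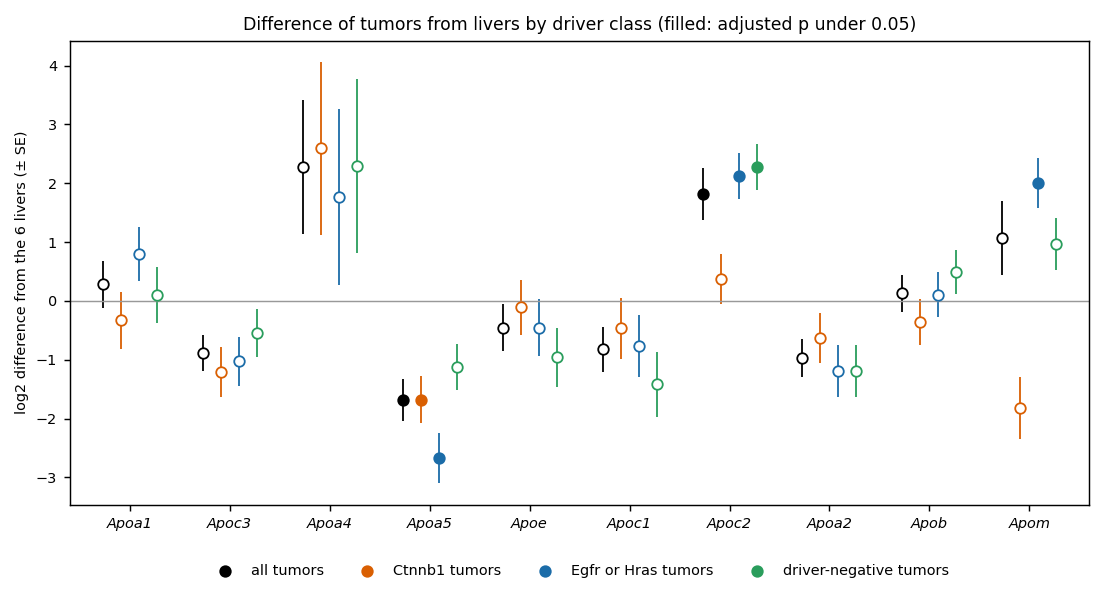
Log2 difference (edgeR, ± SE) of all 6 tumors and of each driver class (2 tumors each) from the same 6 livers, filled where the adjusted p was under 0.05. Apom lies at -1.82 in Ctnnb1 tumors and at 2.00 in Egfr or Hras tumors, and Apoc2 at 0.37 in Ctnnb1 tumors against 2.12 and 2.28 in the other classes.

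The second question was whether the driver classes, each of 2 tumors, differed from the 6 livers and from each other. The 3 comparisons with livers share the same livers. In Ctnnb1 tumors 1 of the 10 genes passed, against 8.20% of all genes tested, in Egfr or Hras tumors 3 of 10 against 18.2%, and in driver-negative tumors 1 of 10 against 8.10%.

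In Ctnnb1 tumors the gene that passed was Apoa5, at 838 (T-HCC662) and 473 CPM (T-HCC663) with a difference from livers of -1.68 ± 0.40 (log2, SE; edgeR adjusted p = 0.0260). The call was lost without either tumor (adjusted p = 0.0652 without T-HCC662 and 0.208 without T-HCC663), and with a replicate block over the 5 mice paired by title, which leaves 1 Ctnnb1 tumor (adjusted p = 0.135). Apom stood at -1.82 ± 0.52 (adjusted p = 0.0540), and passed without liver L981_CI (adjusted p = 0.0271) or liver L984_CI (adjusted p = 0.0302). Apoc3 stood at -1.21 ± 0.42 (adjusted p = 0.107). In the same comparison 2 of 9 hepatocyte markers (all 9 below 0), 3 of 9 stellate and fibroblast markers and 1 of 5 bile duct markers were lower, and 2 of 10 macrophage markers were higher. Their part in these differences was not tested.

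In Egfr or Hras tumors Apoa5 fell, to 382 (T-HCC941) and 280 CPM (TCi-HCC981), with a difference of -2.68 ± 0.43 (6.39-fold lower, edgeR adjusted p = 0.00185). Apoc2 rose by 2.12 ± 0.40 (4.35-fold, adjusted p = 0.00443) and Apom by 2.00 ± 0.43 (4.00-fold, adjusted p = 0.00848). With the mouse as a replicate block Apom was 2.13 ± 0.58 (adjusted p = 0.0577), and without TCi-HCC981 it was 1.85 (adjusted p = 0.0699). The 3 symbols of the Apoc2 locus added up gave 1.07 ± 0.38 (adjusted p = 0.0716), and Apoc4 alone fell by 1.58 ± 0.42 (adjusted p = 0.0233). Apoa2 stood at -1.20 ± 0.44 (adjusted p = 0.0797), and without liver L984_CI at -1.32 (adjusted p = 0.0351). In the same comparison 1 of 10 macrophage, 1 of 8 endothelial, 1 of 8 T and B cell and 1 of 5 bile duct markers were higher and none of the 9 hepatocyte or 9 stellate and fibroblast markers passed. Their part was not tested.

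In driver-negative tumors Apoc2 rose by 2.28 ± 0.40 (4.84-fold, edgeR adjusted p = 0.00611). This was 1.93 ± 0.62 with the mouse as a replicate block (adjusted p = 0.165), 1.62 without T-HCA992 (adjusted p = 0.166) and 1.21 ± 0.38 for the 3 symbols added up (adjusted p = 0.0730). Apoc4 fell by 1.68 ± 0.42 (adjusted p = 0.0334). Apoa5, at 690 (T-HCA992) and 1208 CPM (TCi-HCA984), differed by -1.12 ± 0.39 (adjusted p = 0.0974), and Apom by 0.96 ± 0.44 (adjusted p = 0.202). In the same comparison 3 of 9 stellate and fibroblast markers (median log2 difference 2.27), 1 of 10 macrophage, 1 of 8 endothelial and 1 of 5 bile duct markers were higher, and none of the 9 hepatocyte markers passed. Their part was not tested.

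The test of the difference between classes set the Ctnnb1 tumors against the other 4. Apom and Apoc2 passed, 2 of 10 genes against 12.5% of all genes tested. Apom was 9.84-fold lower in the Ctnnb1 tumors (log2 -3.30 ± 0.59, edgeR adjusted p = 0.00654), without overlap between 33.0 to 35.6 CPM and 210 to 531 CPM. Apoc2 and Apob did not overlap either, and the share of all genes so separated was not computed. The Apom difference was -3.74 ± 0.69 with the mouse as a replicate block (adjusted p = 0.0407). With 1 Ctnnb1 tumor left, the adjusted p was 0.0609 without T-HCC662 and 0.0508 without T-HCC663, at -3.36 and -3.23.

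Apoc2 was 3.56-fold lower in the Ctnnb1 tumors than in the other 4 (log2 -1.83 ± 0.50, edgeR adjusted p = 0.0370). The call was lost with the mouse as a replicate block (-1.92 ± 0.75, adjusted p = 0.223), in a fit of the tumors alone (-1.82, adjusted p = 0.114), and without T-HCC663 (-1.26, adjusted p = 0.205), T-HCC941, T-HCA992 or TCi-HCC981 (adjusted p between 0.0594 and 0.0839). Apoc4 differed in the opposite direction, by 1.81 ± 0.39 (adjusted p = 0.0143), and the 3 symbols added up by -0.90 ± 0.44 (adjusted p = 0.195).

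In the same comparison 3 of 9 hepatocyte, 3 of 9 stellate and fibroblast, 2 of 8 endothelial and 1 of 5 bile duct markers passed, all lower in the Ctnnb1 tumors, and none of the 10 macrophage or 8 T and B cell markers. Their part in the Apom and Apoc2 differences was not tested.

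Between Egfr or Hras and driver-negative tumors, 2 against 2, edgeR called 0 of all genes (1331 at an unadjusted p under 0.05, 105 by DESeq2 and 23 by limma-voom). Among the 10 genes Apoa5 had the smallest p there, with a difference of -1.55 ± 0.45 (adjusted p = 0.466 with edgeR and 0.0322 with DESeq2).

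The third question was the genotype. Within p21+/Tert mice, 4 tumors against 4 livers, 1 of 10 genes passed against 6.49% of all genes tested. That gene was Apoa5, with livers at 2338, 2226, 1851 and 1746 CPM and tumors at 838, 473, 382 and 690 CPM, and its difference was -1.79 ± 0.47 (edgeR adjusted p = 0.0444). The groups did not overlap in Apoa5. Neither did they in Apoa2 (livers 8411 to 11905 CPM, tumors 3528 to 7477 CPM) or Apoc3 (livers 2164 to 4028 CPM, tumors 1116 to 1823 CPM). The share of all genes so separated was not computed. The Apoa5 call was lost without any 1 of the 8 libraries except T-HCC662 (adjusted p between 0.0694 and 0.120), and with a replicate block over the mice paired by title (adjusted p = 0.0527).

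Within p21+/TertCi mice, 2 against 2, edgeR called 0 of all genes (1618 at an unadjusted p under 0.05, 375 by DESeq2 and 1 by limma-voom), and none of the 10. Apoa5 was 1470 and 2780 CPM in livers and 280 and 1208 CPM in tumors, with a difference of -1.53 ± 0.65 (adjusted p = 0.447). Apom was 54.9 and 54.5 CPM in livers and 531 and 210 CPM in tumors (2.74 ± 1.09, adjusted p = 0.415), and Apoc2 differed by 1.60 ± 0.81 (adjusted p = 0.511). In TMM-scaled CPM both tumors lay outside the range of the livers, on the same side, for these 3 genes and for Apoa2. The share of all genes so separated was not computed, so with 2 libraries on each side this is a description only.

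The difference between the genotypes' tumor effects was tested as an interaction, in which edgeR called 0 of all genes (556 at an unadjusted p under 0.05, 10 by DESeq2 and 0 by limma-voom). Apoa4 had 4.44 ± 2.05 and Apom -2.43 ± 1.27, the p21+/Tert effect minus the p21+/TertCi effect, each with an adjusted p of 1.00. For Apoa4 the value turned to -0.30 without liver L984_CI.

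Between p21+/Tert and p21+/TertCi livers, 4 against 2, edgeR again called 0 of all genes (756 at an unadjusted p under 0.05, 42 by DESeq2 and 1 by limma-voom). Apom was 93.3, 177, 211 and 124 CPM against 54.9 and 54.5 CPM, without overlap, and differed by 1.45 ± 0.95 (adjusted p = 0.931). Apoc1 was 3335, 3141, 2402 and 2306 CPM against 1766 and 797 CPM, also without overlap, and differed by 1.12 ± 0.53 (adjusted p = 0.930). Apoe, at 32387 to 40456 CPM against 20950 and 27177 CPM, did not overlap either (0.57 ± 0.60, adjusted p = 0.962). The share of all genes so separated was not computed, so these separations are a description only. Apoa4 differed by -3.65 ± 1.34 (adjusted p = 0.930), where L984_CI alone stood above the other 5 livers.

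Genes that act with apolipoproteins were described by lists chosen with earlier results of these data known, in tumors against livers, where 6.77% of all genes tested rose and 3.91% fell. Of 12 tested members of the other apolipoproteins, 2 fell and 10 did not pass, with a median log2 difference of -0.73. Saa4, a constitutive serum amyloid A protein of HDL, differed by -1.33 ± 0.29 (adjusted p = 0.0111) and Apol7a by -1.20 ± 0.26 (adjusted p = 0.0119). Of 19 genes of lipoprotein assembly and secretion, 1 rose, Sort1, a sorting receptor that binds Apob (1.30 ± 0.32, adjusted p = 0.0230), and the median was -0.08.

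Among 14 genes of plasma remodelling, 1 rose and 2 fell (median -0.58). Lpl, lipoprotein lipase itself, which Apoc2 activates, ranged from 9.94 to 108 CPM in livers and from 165 to 749 CPM in tumors without overlap (3.57 ± 0.64, 11.9-fold, edgeR adjusted p = 0.00450). Lmf1, a factor that matures lipases, differed by -0.79 ± 0.17 (adjusted p = 0.0128), and Lipc, hepatic lipase, by -1.71 ± 0.50 (adjusted p = 0.0434). The call of Lipc was lost without any 1 of 9 libraries, and held without liver L984_CI, T-HCC662 or T-HCC663.

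Of 13 lipoprotein receptor genes 1 rose, Scarb1, the HDL receptor (0.69 ± 0.17, edgeR adjusted p = 0.0229), whose call was lost without liver p_961 (adjusted p = 0.0617) or T-HCC941 (adjusted p = 0.0519) and with a replicate block over the 5 mice paired by title (adjusted p = 0.0654). With edgeR, none of 7 efflux transporters passed, with a median of 0.35.

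Of 30 regulators of apolipoprotein transcription 3 fell and 27 did not pass (median -0.32). They were Nr2f2, the COUP-TFII receptor (-0.76 ± 0.15, edgeR adjusted p = 0.00636), Cebpa, a hepatocyte differentiation factor (-0.80 ± 0.20, adjusted p = 0.0241), and Nr1h4, the bile acid receptor FXR (-1.10 ± 0.30, adjusted p = 0.0328). The call of Nr1h4 was lost without any 1 of 7 libraries (p_961, p_663, p_941 and L984_CI among livers, T-HCC663, T-HCC941 and T-HCA992 among tumors), and that of Cebpa without liver p_961, liver p_663 or T-HCA992 and with a replicate block over the 5 mice paired by title (adjusted p = 0.0722).

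Of 13 lipid droplet genes 3 rose and 10 did not pass (median 0.52): Fabp4, a fatty acid carrier of adipocytes and macrophages (2.53 ± 0.31, edgeR adjusted p = 0.000835), Pnpla3, a lipid droplet lipase (4.39 ± 0.88, adjusted p = 0.00770, limma-voom adjusted p = 0.0578), and Plin3, a coat protein (0.64 ± 0.18, adjusted p = 0.0394). Plin3 kept its call without liver NT_992, T-HCC663, TCi-HCC981 or TCi-HCA984 and lost it without any of the other 8. Macrophage markers summed to between 127 and 1377 CPM in livers, and those sums lay inside that range in 4 tumors and below it in T-HCC662 (92.4 CPM) and TCi-HCA984 (123 CPM). Their part was not tested.

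**Figure D4:**
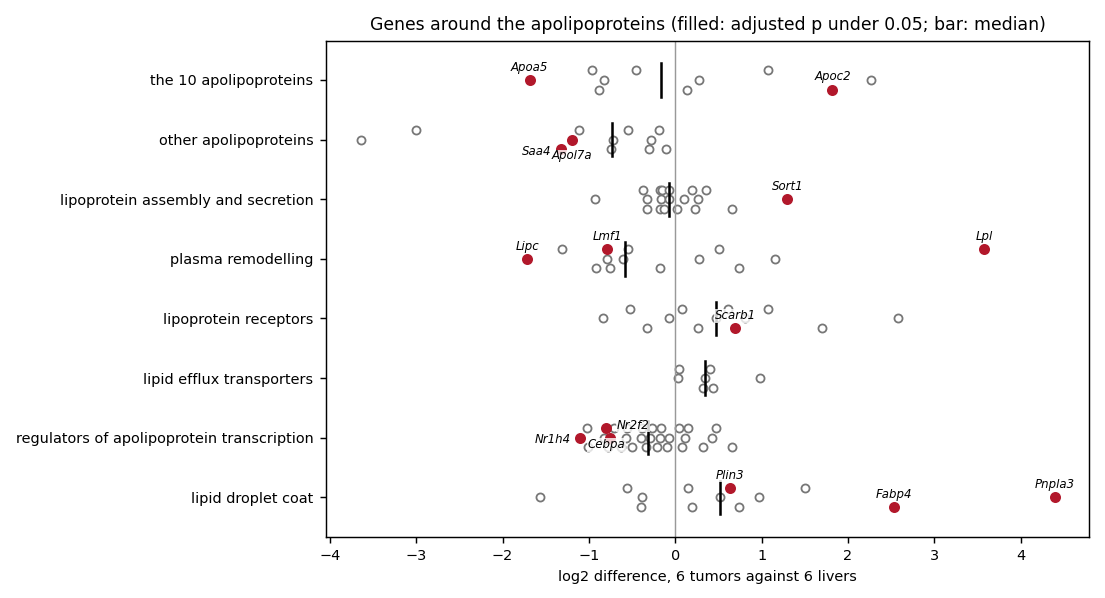
Log2 difference of 6 tumors from 6 livers for each tested gene of 8 lists, filled and named where the edgeR adjusted p was under 0.05, with a bar at the median of the list. Lpl (3.57) and Pnpla3 (4.39) lie farthest to the right among the genes that passed, and Lipc (-1.71) and Apoa5 (-1.69) farthest to the left.

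As a description over the 12 libraries, which mix tissue, class and genotype, the genes whose log2(CPM + 1) ran closest to each member were listed by Pearson's r. For Apoa5 they were Scp2, a sterol carrier protein (0.976), Fam47e (0.971) and Nr1h4 (0.971). For Apoa2 they were Cd59b (0.987), Haao (0.977) and Nipsnap1 (0.963), and for Apoa4 Rab34 (0.952), Cgref1 (0.945) and the hepatokine Fgf21 (0.930). Apoe and its neighbour Apoc1 were each among the other's closest genes (0.945).

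The remaining members had these neighbours in level. Apoc2 ran with Apoc4-apoc2 (0.995), with which it shares exons, Bco1 (0.955) and D10Wsu102e (0.949). Apom ran with Eftud1 (0.924), Fam81a (0.924) and Smad3 (0.908), Apoc3 with Narf (0.950), Sdf4 (0.929) and Serpine2 (0.926), and Apob with Aff4 (0.935), Srp72 (0.921) and Eif3c (0.911). Besides the pair above, Apoc1 ran with Gch1 (0.966) and Zfp949 (0.952) and Apoe with Idh1 (0.939) and Mrpl2 (0.923), while Apoa1 had the lowest values, with Ing5 (0.824), Gtf2b (0.818) and C1galt1c1 (0.815).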

How the data were processed

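Poly(A) RNA of 12 bulk samples was sequenced as paired ends. The authors aligned reads with Subread to mm10 plus mCherry and counted them per gene with featureCounts 1.6.4 (per the labels), and the deposited values are unnormalized counts. Annotation release, strandedness and treatment of multi-mapping reads are not given in the sources used here. The authors corrected for the sequencing run, which the labels do not give, so it could not be modelled. Its part in any value was not tested. The 2 tumors per class and 2 p21+/TertCi livers limit precision.

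Counts were tested with edgeR 4.0.16 in R 4.3.3 (filterByExpr, TMM, quasi-likelihood F test, Benjamini-Hochberg over all genes tested, 0.05). The script was tested on simulated data. The SE is the log2 difference divided by the square root of F. Genotype and tissue came from the labels, and driver classes from the mutations the study gives per mouse. Class and genotype comparisons used all 12 libraries in 1 model. CPM were scaled by TMM over all genes. Gene models were GENCODE M21, and upstream windows RefSeq GRCm38.p6.

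A tumor and a liver of 1 number came from the same animal, as the titles say for 5 mice. Over 13822 genes, the correlation of their deviations from the mean of livers and of tumors was 0.202, 0.074, 0.0767, 0.430, 0.428 and 0.448 for the mice of T-HCC662, T-HCC663, T-HCC941, TCi-HCC981, T-HCA992 and TCi-HCA984. In 4 of the 6 the best match of a liver was the tumor of its own mouse, whereas liver p_663 matched best with T-HCC941 and p_941 with T-HCC663, so for these mice the pairing rests on the titles alone. Alternatives were DESeq2 1.42.0, RLE size factors, no filter on low counts, limma-voom 3.58.1, a replicate block for the mouse, only the groups compared, and each library left out. The sums over the Apoc2 locus and the fits without the mouse of TCi-HCA984 were chosen after seeing the data.

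The members and lists were chosen with earlier results of these data known. Named genes were the 10 members, at most 4 genes per pathway list and direction that passed in tumors against livers, and the 3 genes of highest Pearson r with each member. Fabp2, Vil1, Apoc4 and Apoc4-apoc2 were named after their values were seen.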

Additional observations from a re-analysis of the deposited data

Results flagged for a closer look

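Apoa4 in liver L984_CI, at 9506 CPM, stood apart from the 5 other livers, at 184 to 552 CPM. Apoa2 in T-HCC662, at 7477 CPM, stood apart from the 5 other tumors (3528 to 4207 CPM) and from the 3 other p21+/Tert tumors. These gaps passed Dixon's test at 95%, which flags about 1 in 20 groups by chance, in 3 of 40 groups of libraries examined. Between driver classes, the Ctnnb1 tumors differed from the other tumors by -3.30 (log2) in Apom and by -1.83 in Apoc2.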

How the results depend on the processing

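The lower Apoa5 in tumors kept its call in every alternative run for that comparison, and the mean CPM of all 10 genes in livers and tumors moved by less than 1 SD with unscaled totals. Single libraries changed place on unscaled totals, as given for Apoc2, Apoe and Apom. The number of the 10 genes past the threshold depended on the tool and on single libraries. DESeq2 called 4 (not 2) for tumors against livers, 5 (not 1) within p21+/Tert, 3 (not 1) for Ctnnb1, 5 (not 3) for Egfr or Hras and 5 (not 1) for driver-negative tumors against livers, and 1 (not 0) between the last 2 classes. limma-voom called 3 (not 2) for tumors against livers, beside 1101 of 13822 genes tested. For Ctnnb1 tumors against livers limma-voom called 2 (not 1), beside 1268 of 15182. For Egfr or Hras tumors against livers it called 4 (not 3), beside 2976 of 15182. Only the groups compared gave 2 within p21+/Tert (1061 of 13794 genes tested) and 1 (not 2) for Ctnnb1 against other tumors (839 of 14768). Without both libraries of the mouse of TCi-HCA984, tumors against livers gave 4, beside 1345 of 13877 genes tested.

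With the mouse as a replicate block, the count was 1 for tumors against livers, 0 for driver-negative tumors and 1 for Ctnnb1 against other tumors. With the block over the 5 mice paired by title, it was 1 for tumors against livers and 0 within p21+/Tert, for Ctnnb1 and driver-negative tumors and for Ctnnb1 against other tumors. There Apom in Ctnnb1 against other tumors had -4.25 (adjusted p = 0.133).

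Leaving out 1 library moved the count between 1 and 4 for tumors against livers, 0 and 2 within p21+/Tert, 0 and 3 for Ctnnb1, 2 and 5 for Egfr or Hras, 0 and 3 for driver-negative tumors and 0 and 2 for Ctnnb1 against other tumors. It was 0 throughout within p21+/TertCi, for the interaction, between livers and between the last 2 classes. Where a class kept 1 tumor, that tumor was assumed to vary like the other groups. Apob in tumors against livers ranged from -0.014 without TCi-HCA984 to 0.29 without liver L984_CI, and the Apoa4 interaction from -0.30 without that liver to 6.51 without TCi-HCA984. The cause of these shifts was not tested.

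Over all genes, DESeq2 called 2407 in tumors against livers (edgeR 1476), 2109 within p21+/Tert (986), 2126 for Ctnnb1 (1245), 3701 for Egfr or Hras (2762), 2248 for driver-negative tumors (1230) and 3111 for Ctnnb1 against other tumors (1895). Genes tested were 13822 in the first of these comparisons and 15182 in the others. limma-voom called 657 within p21+/Tert. The block gave more calls than the main fit in tumors against livers (2202, main 1476) and within p21+/Tert (1307, main 986). It gave fewer for Ctnnb1 (851), Egfr or Hras (1801), driver-negative tumors (237) and Ctnnb1 against other tumors (441). The tumors alone gave 839 for the last. The block over 5 mice gave 649 within p21+/Tert, 29 for Ctnnb1, 1592 for Egfr or Hras and 222 for driver-negative tumors and 77 for Ctnnb1 against other tumors. Leaving out 1 library took the number as low as 863 in tumors against livers and 240 within p21+/Tert (both without liver p_961), 410 for Ctnnb1 and 437 for Ctnnb1 against other tumors (both without T-HCC662), 1079 for Egfr or Hras (without TCi-HCC981) and 196 for driver-negative tumors (without T-HCA992), so the shares of all genes called beside the counts of members move with single libraries too.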
